A study of Homo sapiens with 22 samples.

Results

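Axon guidance ligands and receptors are the cues, and the surface proteins that read them, by which growing nerve fibres and migrating cells are steered. The 69 genes described here are those of the 35237 gene symbols of the count table that match a rule on names, which uses no measured value. They are 7 secreted and 13 membrane-bound semaphorins, 9 plexins, 2 neuropilins, 5 ephrin-A and 3 ephrin-B ligands, 9 EphA and 5 EphB receptors, 3 slits, 4 ROBO receptors, 4 netrins, and the 5 netrin receptors DCC and UNC5A to UNC5D. Their RNA was measured in bulk in 2 human neuroblastoma cell lines, SK-N-AS and GIMEN, both classed as mesenchymal by their labels, before and during exposure to PP121 and bufalin. PP121 inhibits tyrosine kinases and PI3K-family kinases, and bufalin is a cardiac glycoside that blocks the sodium pump.

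Untreated SK-N-AS cells were grown in DMEM with 10% fetal bovine serum (FBS, n = 4 libraries). In the first stage they were exposed to 5 µM PP121 for 4 days in DMEM with the serum lowered to 1% (S1D4, n = 4). In the second stage S1D4 cells were moved to Neurobasal with B27, a neuronal medium whose label lists no serum, and given 5 µM PP121 together with 100 nM bufalin. They were harvested after 4 days of this stage (S2D4, n = 4) or after 30 days (S2D30, n = 4). GIMEN cells were left untreated in RPMI with 10% FBS (n = 3) or were exposed in 1 stage to 2.5 µM PP121 and 10 nM bufalin for 30 days in RPMI with 1% FBS (D30, n = 3). Drug and serum changed together in each treated group, and in stage 2 the medium as well, and cannot be told apart. Dose and medium also differ between the lines. The labels do not say that replicates came from separate cultures, so p-values measure the spread between these libraries, which may be technical.

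Semaphorins signal through plexins, and most of the secreted class also need a neuropilin as the binding subunit. Netrins bind DCC and the UNC5 family, slits bind ROBO receptors, and ephrins on one cell bind Eph receptor tyrosine kinases on its neighbour, with signals running in both directions. All these systems act on the actin skeleton of the growth cone, and many are used again in blood vessel growth, in neural crest migration, the process that forms the sympathetic lineage from which neuroblastoma arises, and in the invasion of tumour cells.

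Library totals lay between 16456484 and 37506800 counts. Replicate 4 of S2D4 stood apart from its group: its correlations with the other S2D4 libraries over log2 CPM were 0.969 to 0.971, while every other SK-N-AS library reached at least 0.9855 with some library of its group. Of the 10 mesenchymal markers 10 were above 3 counts in each SK-N-AS library and 9 in each GIMEN library, and their summed level was 1613 to 2127 CPM in untreated SK-N-AS and 42260 to 44050 in untreated GIMEN. The treated groups S1D4, S2D4, S2D30 and GIMEN D30 had 1583 to 1800, 2767 to 6094, 4251 to 4689 and 20030 to 22190 CPM. The adrenergic markers summed to 1775 to 2011 CPM in untreated SK-N-AS, with 9 of 10 genes above 3 counts in each library, and the sums in S1D4, S2D4 and S2D30 were 1442 to 1716, 615.6 to 939 and 219.9 to 271 CPM. In GIMEN they summed to 409.9 to 429.5 CPM untreated and 221 to 263 after 30 days, while DDC and TH were at 0 in both GIMEN groups. Schwann and endothelial markers summed to at most 10.5 and 31.5 CPM. Of 8 leukocyte markers 3 were above 3 counts in each library, with sums of 80.3 to 361 CPM, and CD3E was at 0 in each SK-N-AS library. The part of these markers in the results below was not tested.

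Promoter sequences of 5 members are shown because these genes had large changes at a high level (SEMA7A, EPHA2, SLIT3 and UNC5C) or share with EPHA2 a motif and a rise in S2D4 (SEMA4C). Each window is the 250 bases before a RefSeq transcription start (GRCh38.p14), 5′ to 3′ on the gene's strand, which is the minus strand for all 5. The genes and the motifs were chosen after values were seen, and each motif was searched on both strands. Capitals mark the NF-kappa-B motif in SEMA7A and the cAMP response element (CRE) TGACGTCA in EPHA2 and SEMA4C. In SLIT3 and UNC5C no match to these motifs, to AP-1 (TGANTCA), FOXO (TGTTTAC) or the E-box (CACGTG) was found in this window. SEMA7A has 2 windows, and the one shown is that with the match. The other, at chr15:74433705-74433954, held none of these motifs.
SEMA7A chr15:74433959-74434208: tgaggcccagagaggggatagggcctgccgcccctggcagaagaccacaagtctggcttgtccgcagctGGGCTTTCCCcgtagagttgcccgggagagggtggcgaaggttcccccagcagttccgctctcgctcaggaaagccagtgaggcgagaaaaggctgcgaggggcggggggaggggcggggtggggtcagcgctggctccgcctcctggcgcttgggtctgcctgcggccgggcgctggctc
EPHA2 chr1:16156070-16156319: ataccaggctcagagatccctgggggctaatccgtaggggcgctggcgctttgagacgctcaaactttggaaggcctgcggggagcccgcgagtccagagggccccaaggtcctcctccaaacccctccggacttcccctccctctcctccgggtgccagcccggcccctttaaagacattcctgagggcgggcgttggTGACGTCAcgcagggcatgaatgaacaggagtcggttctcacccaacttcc
SEMA4C chr2:96870081-96870330: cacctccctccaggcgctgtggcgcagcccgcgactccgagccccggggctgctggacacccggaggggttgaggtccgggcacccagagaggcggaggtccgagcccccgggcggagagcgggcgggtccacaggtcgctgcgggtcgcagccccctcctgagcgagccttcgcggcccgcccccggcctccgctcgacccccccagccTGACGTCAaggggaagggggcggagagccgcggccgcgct
SLIT3 chr5:169301140-169301389: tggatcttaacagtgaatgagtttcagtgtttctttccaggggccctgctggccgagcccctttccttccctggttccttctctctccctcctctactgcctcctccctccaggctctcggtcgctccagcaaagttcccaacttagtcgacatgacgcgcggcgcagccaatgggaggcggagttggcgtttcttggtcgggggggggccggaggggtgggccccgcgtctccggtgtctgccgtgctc
UNC5C chr4:95548974-95549223: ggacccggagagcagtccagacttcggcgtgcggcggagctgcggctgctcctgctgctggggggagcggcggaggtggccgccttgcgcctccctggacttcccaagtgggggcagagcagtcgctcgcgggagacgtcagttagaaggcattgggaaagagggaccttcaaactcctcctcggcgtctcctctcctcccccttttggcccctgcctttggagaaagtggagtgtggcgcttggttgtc

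Windows were found for 59 of the 69 members (91 windows). The CRE occurred in 3 of these windows (3.30%), those of EPHA2, SEMA3B and SEMA4C, against 1.65% of the 35116 windows of all genes. NF-kappa-B occurred in 6 (6.59% against 5.07%), AP-1 in 1 (1.10% against 6.57%), FOXO in 1 (1.10% against 2.98%) and the E-box in 4 (4.40% against 6.34%). The genes with a CRE did not move as one: SEMA3B fell in S2D4 while EPHA2 and SEMA4C rose. A match of letters is a description and says nothing of binding.

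The first question was how many of these genes moved at each step. A gene was called when its edgeR adjusted p was under 0.05 over all genes tested, and 64 members passed the filter on low counts in SK-N-AS. Against untreated cells, 13 members were called higher and 16 lower in S1D4, where 40.1% of all 15810 genes tested were called (17.6% higher and 22.4% lower). In S2D4 the counts were 16 higher and 25 lower (63.1% of all genes called, 30.9% higher and 32.2% lower), and in S2D30 15 higher and 33 lower (70.3%, 33.8% and 36.5%). With a fold of at least 2 they were 3 and 9 in S1D4 (all genes 6.03% and 6.26%), 12 and 23 in S2D4 (13.3% and 15.7%), and 10 and 22 in S2D30 (17.8% and 19.2%). Treated and untreated libraries did not overlap for 26 members in S1D4 (37.9% of all genes), 36 in S2D4 (51.1%) and 49 in S2D30 (66.5%). With all libraries, called shares of the members tested were 45.3%, 64.1% and 75%, close to those of all genes. Without S2D4 replicate 4 they were 63.1%, 78.5% and 80%, beside 47.8%, 65.5% and 74% of all genes. The closeness in S1D4 and S2D4 thus depended on that library. These comparisons share the untreated libraries. In bulk RNA, fewer cells of a type and less RNA per cell cannot be told apart.

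In S2D30, of 33 ligands tested, 7 were higher and 20 lower with a median log2 fold change of -0.70, and of 31 receptors 8 were higher and 13 lower with a median of -0.37. The median over all 64 was -0.59, beside -0.03 over all genes tested. In S1D4 and S2D4 the medians of the members were 0.04 and -0.21, and those of all genes -0.01 and -0.02. In GIMEN, 51 members were tested, and 22 were higher and 15 lower after 30 days (71.4% of all 13517 genes called, 35.5% higher and 36% lower), with a median of 0.18 beside 0.02 over all genes. Of these, 12 of 27 ligands and 10 of 24 receptors were higher. The groups did not overlap for 37 members (75.1% of all genes), and with a fold of at least 2 there were 11 higher and 9 lower (11.8% and 12.9%). Of the members, 5 were too low to test in SK-N-AS (EPHA10, ROBO4, SEMA3G, SLIT1 and UNC5D) and 18 in GIMEN, so these counts do not describe all 69.

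**Figure D1:**
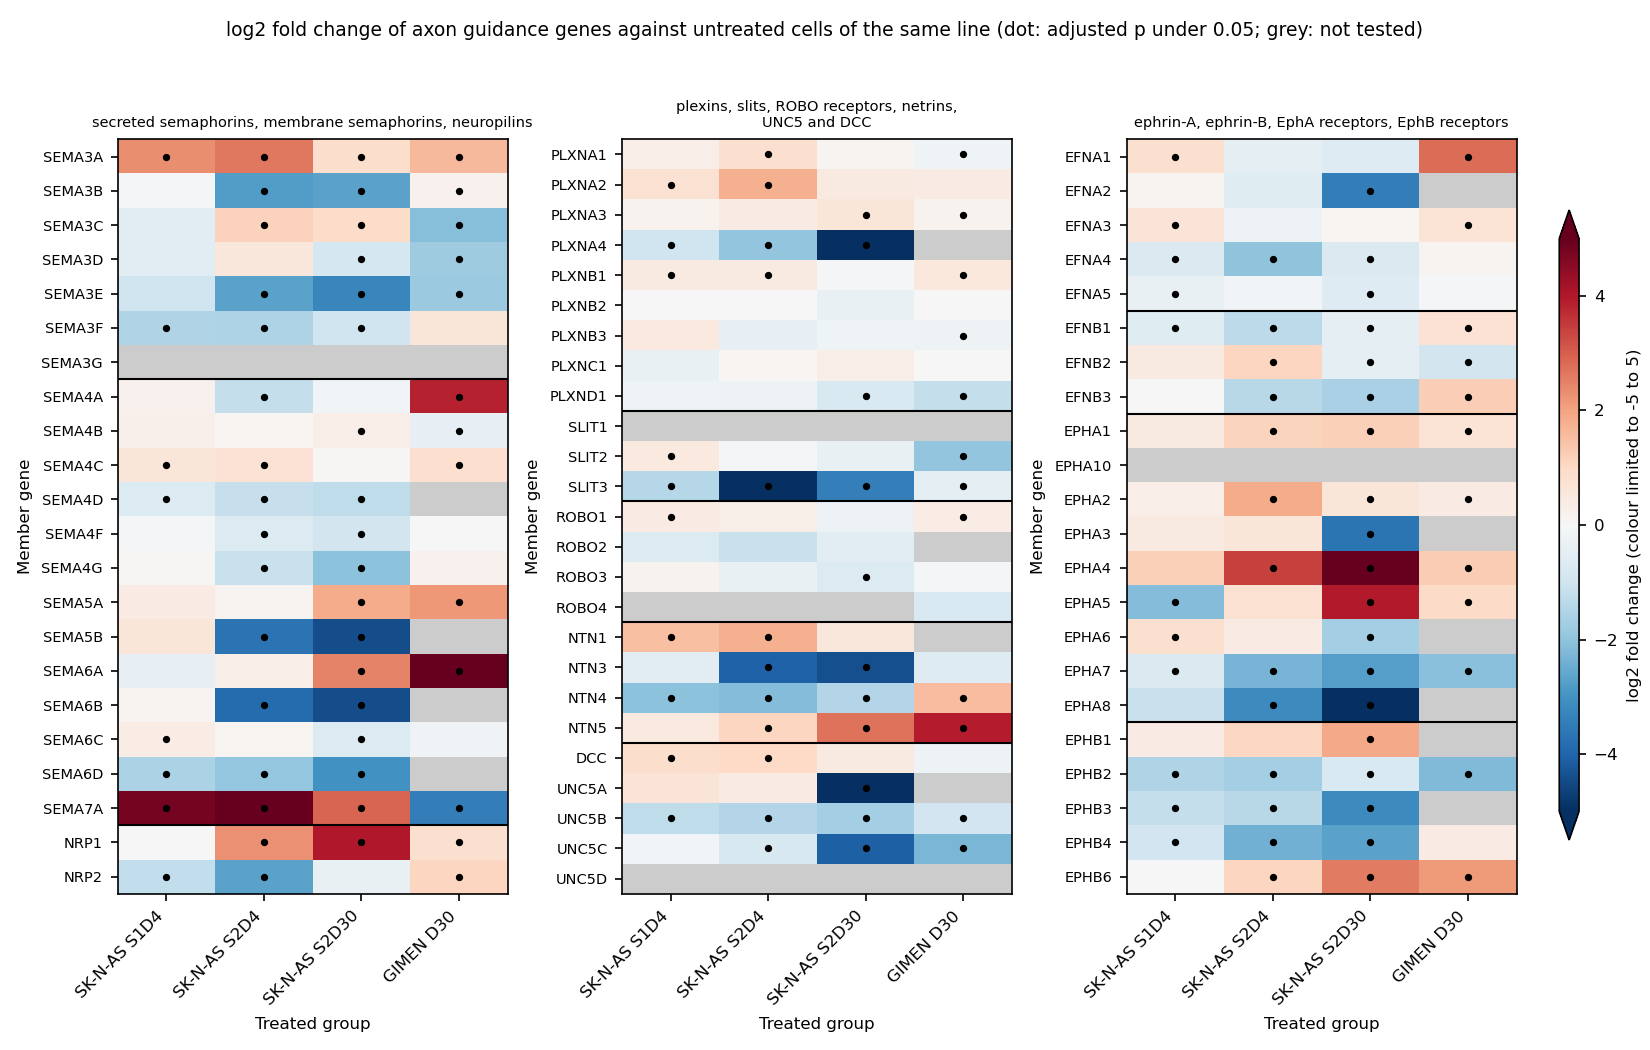
Each cell is the log2 fold change of 1 member (rows, grouped by family) in 1 treated group against untreated cells of the same line (columns), with colours limited to -5 to 5, a dot for an edgeR adjusted p under 0.05 and grey for members not tested. SEMA7A was higher in the 3 treated SK-N-AS groups and lower in treated GIMEN, and the fitted value of EPHA4 in SK-N-AS rests on an untreated group at the detection floor.

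Among the secreted semaphorins, most of which repel or attract axons through neuropilin and plexin complexes, SEMA3A had the largest rise in S1D4 and S2D4. Values in every library are given below in CPM, the count relative to the effective library size, scaled within each line and listed in the order of the replicate numbers. Changes are log2 fold changes from the edgeR fits with their standard errors (SE), and a difference between the lines is the change over 30 days in SK-N-AS minus that in GIMEN. SEMA3A, a repellent that collapses growth cones, stood at 46.1, 47.8, 28.5 and 40.9 CPM untreated, 209.6, 201, 202 and 208 in S1D4, 256, 257, 253 and 264 in S2D4 and 75.3, 77.8, 74.4 and 75.5 in S2D30. Each treated library lay above each untreated one. The log2 fold changes were 2.33 (SE 0.12, edgeR adjusted p = 1.43e-09), 2.65 (SE 0.12, adjusted p = 2.37e-11) and 0.89 (SE 0.11, adjusted p = 2.53e-06), and S2D30 was below S2D4 (-1.76, SE 0.12, edgeR adjusted p = 3.89e-09). In GIMEN, SEMA3A stood at 45.96, 49.4 and 44.5 CPM untreated and 138, 146 and 141 after 30 days. It rose there too, by 1.60 (SE 0.06, edgeR adjusted p = 1.47e-09) on the log2 scale, without overlap of the groups.

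SEMA3C, which binds both neuropilins and promotes vessel and tumour growth in several settings, moved in opposite directions in the lines. It stood at 33.4, 36.1, 40.6 and 57.1 CPM untreated, 25.6, 20.9, 33.98 and 35.6 in S1D4, 120.1, 113, 109.9 and 33.8 in S2D4 and 78.4, 83.2, 79.2 and 76.1 in S2D30. S2D4 replicate 4 lay within the untreated range, and the other S2D4 libraries above it. Its log2 fold changes were 1.17 (SE 0.29, edgeR adjusted p = 0.00222) in S2D4 and 0.92 (SE 0.29, adjusted p = 0.00963) in S2D30, while S1D4 was not called (-0.53, adjusted p = 0.167, but 0.0135 without S2D4 replicate 4). GIMEN held 521, 478 and 486 CPM untreated and 104, 116 and 121 after 30 days. The change was -2.12 (SE 0.07, edgeR adjusted p = 6.16e-10), and the difference between the lines in the 30-day change was 3.03 (SE 0.19, edgeR adjusted p = 1.65e-09).

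SEMA3F, a repellent that acts through NRP2, fell in SK-N-AS. It stood at 32.4, 34.1, 29.8 and 30.3 CPM untreated, 12.2, 11.8, 10.97 and 10.1 in S1D4, 8.196, 6.45, 6.54 and 21.2 in S2D4 and 15.4, 16.9, 15.7 and 16.3 in S2D30. Each treated library lay below each untreated one, with replicate 4 of S2D4 well above the rest of its group. Log2 fold changes were -1.49 (SE 0.28, edgeR adjusted p = 0.000477) in S1D4, -1.56 (SE 0.28, adjusted p = 0.000123) in S2D4 (-2.16 without that replicate) and -0.98 (SE 0.27, adjusted p = 0.00438) in S2D30. In GIMEN it was low, at 0.747, 0.891 and 1.03 CPM untreated and 1.35, 1.13 and 1.55 after 30 days, and not called (0.60, adjusted p = 0.0998).

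SEMA3B, SEMA3D and SEMA3E fell in S2D30. SEMA3B was at 9.04 ± 2.12 CPM (SD, n = 4) in untreated SK-N-AS and 1.31 ± 0.325 in S2D4 and fell, at -2.78 (SE 0.23, edgeR adjusted p = 2.47e-08) there and at -2.66 (SE 0.23, adjusted p = 2.07e-08) in S2D30, while it was slightly higher in GIMEN D30 (0.20, SE 0.07, edgeR adjusted p = 0.0254), a call lost without D30 replicate 2 or 3 or any 1 untreated GIMEN library (adjusted p of 0.0598 to 0.0856) and in DESeq2 (0.0738). SEMA3E fell in S2D4, S2D30 and GIMEN D30, at -2.69, -3.26 and -1.85 on the log2 scale (edgeR adjusted p = 0.000116, 2.32e-05 and 0.000798). SEMA3D fell in S2D30 (-0.87, SE 0.26, edgeR adjusted p = 0.00676) and in GIMEN D30 (-1.77, SE 0.11, adjusted p = 9.12e-08), where the fall was larger (difference 0.88, SE 0.28, edgeR adjusted p = 0.0169). SEMA3G was at or below 0.791 CPM in each SK-N-AS library and was not tested within either line.

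The neuropilins are the binding subunits for most secreted semaphorins and also for forms of vascular endothelial growth factor. NRP1 stood at 50.04, 52.4, 26.5 and 27.4 CPM untreated, 35.4, 33.6, 43.5 and 39.8 in S1D4, 237, 218, 224 and 75.8 in S2D4 and 627, 669, 635 and 596 in S2D30. Untreated replicates 1 and 2 were near each other and above replicates 3 and 4, S1D4 lay inside that range, and each S2D4 and S2D30 library lay above it, with S2D4 replicate 4 the lowest of its group. Its log2 fold changes were -0.04 (SE 0.28) in S1D4 (adjusted p = 0.933), 2.27 (SE 0.29, edgeR adjusted p = 4.34e-06) in S2D4 and 4.01 (SE 0.31, edgeR adjusted p = 6.77e-09) in S2D30. In GIMEN, where the starting level was higher, NRP1 stood at 983, 957 and 961 CPM untreated and 1530, 1722 and 1748 after 30 days and rose by 0.79 (SE 0.07, edgeR adjusted p = 1.66e-06). The rise was larger in SK-N-AS (difference 3.21, SE 0.27, edgeR adjusted p = 6.07e-08). Exons of another gene on the opposite strand cover 4.87% of the NRP1 exon bases in GENCODE v29, and the strand setting of the counting is not given in the sources used here.

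NRP2 did not follow NRP1 in SK-N-AS. It stood at 3.16, 2.99, 6.52 and 8.604 CPM untreated, 2.46, 3.48, 1.93 and 1.29 in S1D4, 1.11, 1.06, 0.927 and 0.3002 in S2D4 and 4.44, 4.45, 4.297 and 3.28 in S2D30. Untreated replicates 1 and 2 lay below replicates 3 and 4, and S1D4 overlapped the untreated libraries, with its replicate 2 above untreated replicates 1 and 2. Each S2D4 library lay below each untreated one, while S2D30 lay back inside the untreated range. The log2 fold changes were -1.22 (SE 0.39, edgeR adjusted p = 0.0195) in S1D4, -2.68 (SE 0.43, adjusted p = 4.00e-05) in S2D4 and -0.37 (SE 0.38, adjusted p = 0.389) in S2D30, the last not called. The S1D4 call was lost without untreated replicate 3 or 4 or without S1D4 replicate 3 or 4 (adjusted p = 0.0526, 0.0805, 0.0538 and 0.0645). GIMEN held 210.1, 199 and 209.6 CPM untreated and 435, 438 and 426 after 30 days, a rise of 1.07 (SE 0.06, edgeR adjusted p = 2.31e-08), and the lines differed in it (-1.46, SE 0.34, edgeR adjusted p = 0.00187).

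Of the 9 plexins, the signalling receptors for semaphorins, 1 was called higher and 2 lower in S2D30, or 33.3% beside 70.3% of all genes. This share depended on S2D4 replicate 4. Without that library PLXNA2, PLXNB2 and PLXNC1 were also called in S2D30, in a fit that called 74% of all genes there. PLXNA1, a partner of neuropilins, stood at 205, 249, 202 and 301 CPM untreated, 296, 324, 284 and 304 in S1D4, 350.2, 336, 396 and 586 in S2D4 and 272, 281, 239 and 274 in S2D30. S2D4 lay above each untreated library and S2D30 inside the untreated range. It was called in S2D4 (0.80, SE 0.16, edgeR adjusted p = 0.000302) and not in S1D4 (0.34, SE 0.16, adjusted p = 0.0992) or S2D30 (0.16, SE 0.16, adjusted p = 0.385), and S1D4 became a call without untreated replicate 4 (adjusted p = 0.0173) or without S2D4 replicate 4 (0.0169). In GIMEN it stood at 189, 177 and 179 CPM untreated and 162, 163 and 148 after 30 days, slightly lower (-0.21, SE 0.06, edgeR adjusted p = 0.0112), a call lost without untreated replicate 1 (adjusted p = 0.0554).

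PLXND1, the receptor for SEMA3E, stood at 80.98, 98.2, 96.2 and 114 CPM untreated, 70.1, 75.7, 98.2 and 91.5 in S1D4, 57.03, 53.1, 59.9 and 155 in S2D4 and 56.9, 61.1, 57.9 and 55.2 in S2D30. In S2D4 replicates 1 to 3 were below each untreated library and replicate 4 above each. S2D4 was not called with all libraries (-0.26, SE 0.26, adjusted p = 0.402) and was called without replicate 4 (-0.78, edgeR adjusted p = 2.59e-05). S2D30 was lower (-0.75, SE 0.26, edgeR adjusted p = 0.017), with no overlap, although with the term for replicates 3 and 4 described for EPHA2 the adjusted p was 0.0723. GIMEN held 43.5, 44.3 and 45.5 CPM untreated and 21.5, 19.6 and 17.2 after 30 days, and also fell (-1.19, SE 0.09, edgeR adjusted p = 2.31e-07).

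PLXNA4, a partner of NRP1 in sensory and sympathetic axons, had the deepest fall of the plexins. It stood at 18.1, 20.7, 12.4 and 25.2 CPM untreated, 10.3, 9.07, 9.75 and 9.51 in S1D4, 4.82, 4.77, 5.22 and 4.84 in S2D4 and 0.634, 0.265, 0.4203 and 0.808 in S2D30. Each step was lower than the one before without overlap, at -0.98 (SE 0.20, edgeR adjusted p = 0.00105), -1.96 (SE 0.21, adjusted p = 5.41e-07) and -5.13 (SE 0.26, adjusted p = 4.12e-11) against untreated cells. In GIMEN it was at most 0.921 CPM in each library and was not tested. PLXNA2 rose in S1D4 (0.76, SE 0.23, edgeR adjusted p = 0.0156) and S2D4 (1.78, SE 0.24, adjusted p = 6.43e-06) and was not called in S2D30 (0.44, SE 0.23, adjusted p = 0.0992), except without untreated replicate 4 or S2D4 replicate 4 (adjusted p = 0.0313 and 0.0022), and S2D30 was below S2D4 (-1.33, SE 0.24, edgeR adjusted p = 0.000168). In S2D4, PLXNA2 stood at 352.7 to 396.5 CPM in replicates 1 to 3 and at 136.4 in replicate 4, below each S1D4 library. PLXNA3 was higher in S2D30 and in GIMEN D30, at 0.61 and 0.18 on the log2 scale with overlapping libraries (edgeR adjusted p = 0.0256 and 0.0451). The first call was lost without untreated replicate 1, 2 or 3 or S2D30 replicate 1 or 4 (adjusted p of 0.0506 to 0.0719), and the second without D30 replicate 1 or 2 or untreated replicate 2 or 3 (0.0709 to 0.189). PLXNB1, the SEMA4D receptor, rose in S1D4 and S2D4 by 0.46 and 0.44 with overlap and in GIMEN by 0.54 without it (edgeR adjusted p = 0.0158, 0.0126 and 8.56e-06). PLXNB2, PLXNB3 and PLXNC1, the last the receptor for SEMA7A, were not called in any treated SK-N-AS group with all libraries. Without S2D4 replicate 4 they were called in S2D4, at -0.46, -0.98 and 0.32 on the log2 scale (edgeR adjusted p = 4.77e-05, 1.72e-05 and 0.0425), PLXNB3 and PLXNC1 also in S1D4 (0.48 and -0.37), and PLXNB2 and PLXNC1 in S2D30 (-0.39 and 0.34). Exons of SRPK3 lie over 20.4% of the PLXNB3 exon bases.

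SEMA7A, a semaphorin held on the membrane by a lipid anchor that binds PLXNC1 and integrins and promotes axon growth, had the largest rise of any member in S1D4 and S2D4. It stood at 1.48, 2.1, 2.44 and 1.96 CPM untreated, 54.96, 51.5, 54.04 and 52.9 in S1D4, 115, 133, 137 and 139.5 in S2D4 and 13.7, 17.3, 16.6 and 10.8 in S2D30. The groups did not overlap at any step. Log2 fold changes were 4.77 (SE 0.16, edgeR adjusted p = 1.32e-11), 6.07 (SE 0.17, adjusted p = 1.19e-13) and 2.90 (SE 0.16, adjusted p = 9.29e-11), and S2D30 was below S2D4 (-3.17, SE 0.14, edgeR adjusted p = 8.39e-11). GIMEN began at a high level and went the other way, with 113, 118 and 116 CPM untreated and 13.1, 8.12 and 10.4 after 30 days. The change was -3.45 (SE 0.12, edgeR adjusted p = 6.22e-10) and the difference of the 30-day change was 6.34 (SE 0.26, edgeR adjusted p = 9.97e-12). After 30 days S2D30 held 14.6 ± 2.98 CPM (SD, n = 4) and GIMEN D30 10.5 ± 2.47 CPM (n = 3), each on its own line's scale.

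SEMA6A, a transmembrane ligand of A-type plexins that can also act as a receptor, rose late. It stood at 18.9, 22.3, 19.9 and 25.3 CPM untreated, 17.2, 16.3, 14.8 and 17.5 in S1D4, 31.9, 29.1, 31.9 and 15.5 in S2D4 and 129, 106, 96.1 and 151 in S2D30. S1D4 lay below each untreated library and was called only without S2D4 replicate 4 or with untreated and S1D4 libraries alone (adjusted p = 0.12 with all, 0.0195 and 0.0289), S2D4 lay on both sides, and S2D30 lay above each. The change was 2.48 (SE 0.20, edgeR adjusted p = 8.12e-09) in S2D30, and 0.32 (SE 0.19, adjusted p = 0.15) in S2D4, which became a call of 0.52 without S2D4 replicate 4 (adjusted p = 0.00318). In GIMEN it stood at 0.2799, 0.267 and 0.566 CPM untreated and 13.6, 18.9 and 20.6 after 30 days, a rise of 5.58 (SE 0.27, edgeR adjusted p = 9.34e-09) and the largest of the members in that line. The rise was smaller in SK-N-AS (difference -3.12, SE 0.38, edgeR adjusted p = 3.63e-06), which began from a higher level.

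SEMA6B, SEMA5B and SEMA6D, transmembrane semaphorins, fell. SEMA6B stood at 56.6, 55.9, 100.0 and 86.4 CPM untreated, 88.9, 90.95, 76.4 and 68.7 in S1D4, 1.98, 0.953, 1.85 and 15.01 in S2D4 and 3.896, 2.38, 2.76 and 4.76 in S2D30. S1D4 lay in the untreated range, and stage 2 lay far below it, least so in S2D4 replicate 4. Log2 fold changes were -3.83 (SE 0.57, edgeR adjusted p = 2.00e-05) in S2D4 (-5.53 without that replicate) and -4.43 (SE 0.60, adjusted p = 4.76e-06) in S2D30. Between S2D4 and S2D30 it changed by -0.60 (adjusted p = 0.421) with all libraries and by 1.10 (0.011) without it. SEMA5B stood at 2.398, 2.71, 3.36 and 3.35 CPM untreated, 3.96, 5.68, 4.08 and 4.01 in S1D4, 0.241, 0.0561, 0.0488 and 0.467 in S2D4 and 0.0453, 0.212, 0.234 and 0.0449 in S2D30. S1D4 was above each untreated library but not called (0.59, adjusted p = 0.216), and stage 2 was lower, at -3.69 (SE 0.46, edgeR adjusted p = 3.18e-06) in S2D4, or -4.58 without replicate 4, and -4.44 (SE 0.51, adjusted p = 6.83e-07) in S2D30. SEMA6D stood at 5.03, 5.69, 4.38 and 6.86 CPM untreated, 1.96, 2.01, 2.02 and 1.43 in S1D4, 1.35, 0.953, 0.781 and 2.501 in S2D4 and 0.544, 0.794, 1.03 and 0.359 in S2D30. It lay below each untreated library at every step, at -1.56 (SE 0.33, edgeR adjusted p = 0.00118), -1.94 (SE 0.33, adjusted p = 8.35e-05) and -3.01 (SE 0.36, adjusted p = 1.19e-06). In GIMEN these 3 genes were at most 0.312 CPM in each library and were not tested.

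SEMA4A, a ligand with roles in immune cells and vessels, stood at 1.92, 2.94, 1.27 and 1.39 CPM untreated, 2.13, 3.04, 1.67 and 1.94 in S1D4, 0.386, 0.841, 0.8295 and 1.201 in S2D4 and 1.36, 1.91, 1.54 and 2.11 in S2D30. It fell in S2D4 (-1.18, SE 0.34, edgeR adjusted p = 0.00643) and returned in S2D30 to a level that was not called against untreated cells (-0.12, SE 0.33, adjusted p = 0.756). GIMEN held 0.187, 0.223 and 0.0514 CPM untreated and 2.96, 2.2 and 1.84 after 30 days, a rise of 3.84 (SE 0.44, edgeR adjusted p = 1.11e-05) from near the detection limit. Of the other membrane semaphorins, SEMA4D, an activator of PLXNB1, fell, at -0.69 (SE 0.19), -1.15 (SE 0.19) and -1.27 (SE 0.19) in S1D4, S2D4 and S2D30. SEMA4G fell, at -2.05 (SE 0.27, edgeR adjusted p = 3.86e-06) in S2D30, with exons of other genes opposite 27.4% of its exon bases, and SEMA4F at -0.91 (SE 0.11). SEMA4C, whose promoter holds the CRE above, rose in S1D4 (0.60, SE 0.12, edgeR adjusted p = 0.00096), S2D4 (0.71, SE 0.12, adjusted p = 8.48e-05) and GIMEN D30 (0.85, SE 0.06, adjusted p = 1.90e-07) and was not called in S2D30 (0.08, SE 0.12, adjusted p = 0.595). SEMA6C was higher in S1D4 (0.39, SE 0.11, edgeR adjusted p = 0.0118) and lower in S2D30 (-0.70, SE 0.12, adjusted p = 4.40e-05). SEMA4B was slightly higher in S2D30 (0.34, SE 0.10, edgeR adjusted p = 0.0067) and lower in GIMEN D30 (-0.42, SE 0.10, adjusted p = 0.0024). SEMA5A rose in S2D30 and GIMEN D30 (1.86, SE 0.66, edgeR adjusted p = 0.0183 and 2.15, SE 0.48, adjusted p = 0.00187), each from at most 0.420 CPM. The first of these was lost without untreated replicate 4 or S2D30 replicate 1 (adjusted p = 0.052 and 0.0617).

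**Figure D2:**
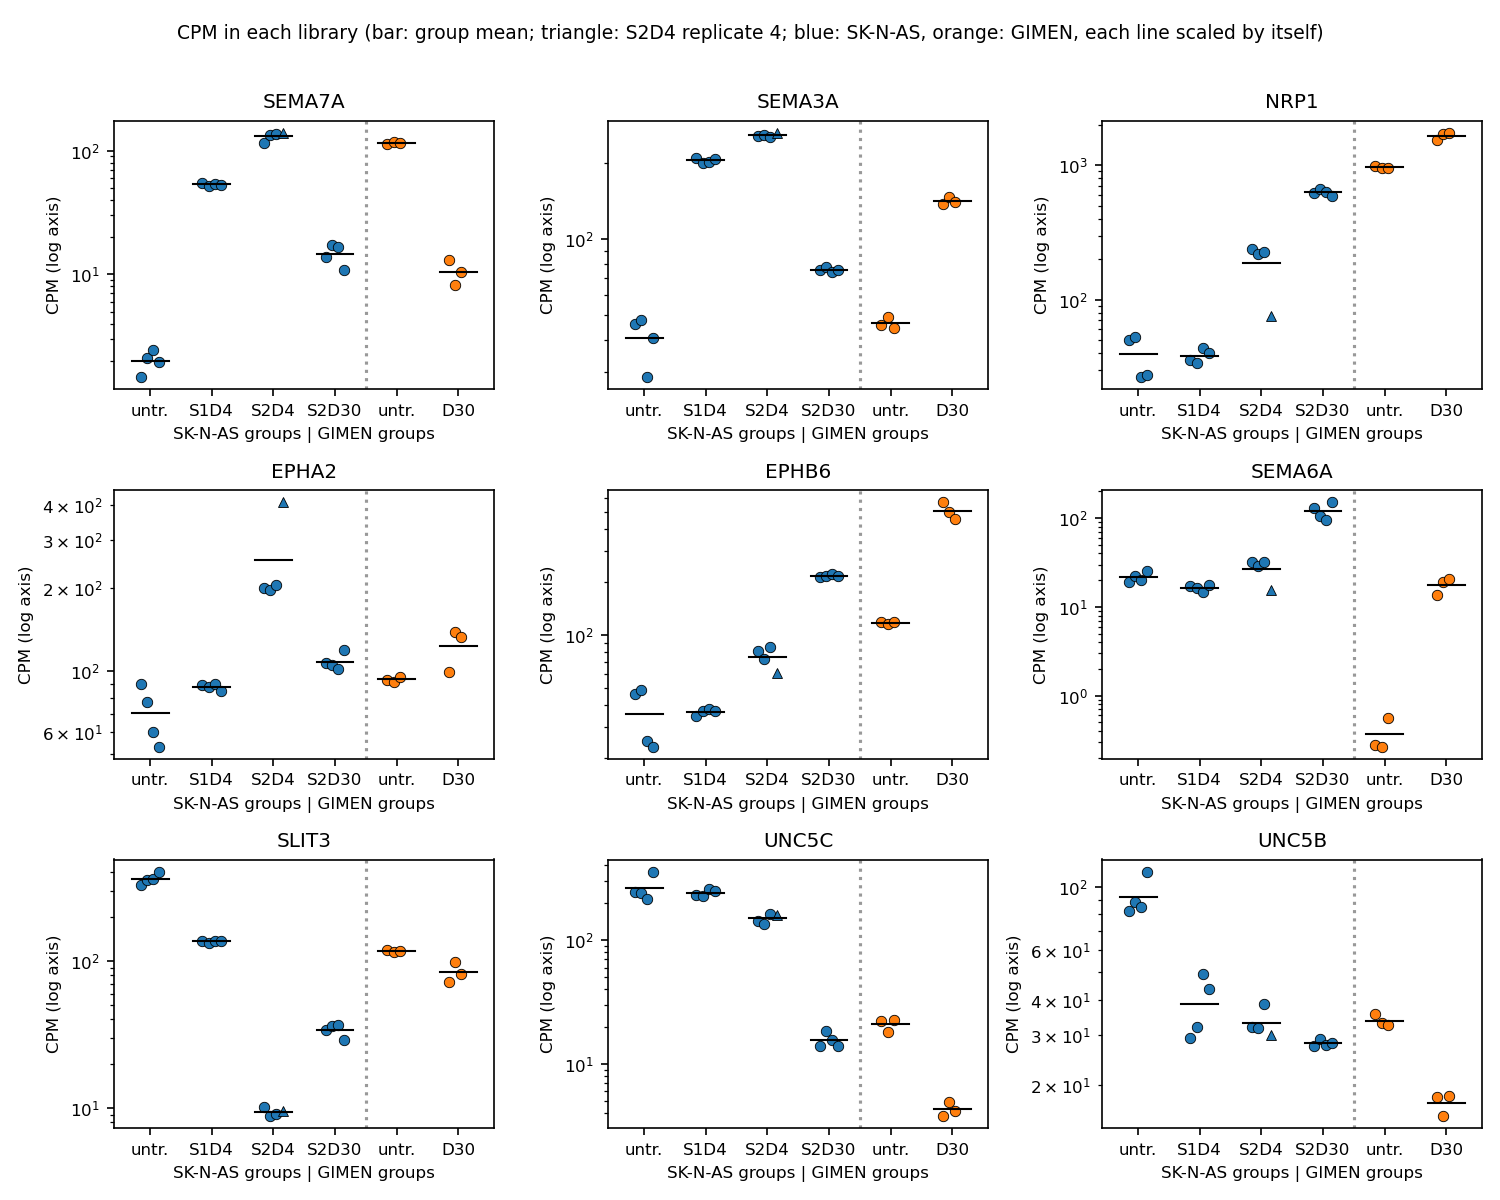
Points are the CPM of single libraries on log axes for 9 members, in the SK-N-AS groups (blue) and the GIMEN groups (orange), with a bar at each group mean and a triangle for S2D4 replicate 4. NRP1 and EPHB6 were highest in the 30-day group of each line, while SEMA7A rose in SK-N-AS and fell in GIMEN.

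Netrins guide axons toward or away from their source according to the receptor met. NTN1, the classical netrin, was low and stood at 0.791, 0.8399, 0.509 and 1.17 CPM untreated, 2.04, 3.09, 2.24 and 2.17 in S1D4, 2.46, 1.57, 2.39 and 5.04 in S2D4 and 1.18, 1.16, 1.03 and 1.66 in S2D30. It rose in S1D4 (1.5, SE 0.34, edgeR adjusted p = 0.0022) and S2D4 (1.78, SE 0.34, adjusted p = 0.00023) without overlap, while S2D30 was not called (0.58, SE 0.35, adjusted p = 0.145). It was too low to test in GIMEN, where it stood at 0.233, 0.0891 and 0 CPM untreated and 0.832, 0.339 and 0.403 after 30 days. NTN4, a netrin of basement membranes that binds laminin, went the other way in SK-N-AS, with 9.38, 8.96, 9.98 and 11.9 CPM untreated, 1.71, 2.21, 3.25 and 2.54 in S1D4, 3.62, 2.08, 2.93 and 0.5003 in S2D4 and 3.896, 3.55, 4.02 and 2.96 in S2D30. Each treated library lay below each untreated one, at -2.05 (SE 0.37, edgeR adjusted p = 0.000354), -2.16 (SE 0.37, adjusted p = 9.22e-05) and -1.48 (SE 0.36, adjusted p = 0.00156). In GIMEN it stood at 25.9, 28.9 and 30.9 CPM untreated and 92.4, 79.3 and 79.8 after 30 days, a rise of 1.55 (SE 0.09, edgeR adjusted p = 2.58e-08), and the difference between the lines was -3.05 (SE 0.17, edgeR adjusted p = 4.71e-10).

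NTN3 and NTN5 are less studied netrins. NTN3 stood at 4.01, 5.04, 3.92 and 11.9 CPM untreated, 3.46, 3.43, 4.43 and 5.58 in S1D4, 0.289, 0.224, 0.293 and 0.634 in S2D4 and 0.634, 0.159, 0.187 and 0.1796 in S2D30. Stage 2 lay below each untreated library, at -4.03 (SE 0.47, edgeR adjusted p = 1.53e-06) in S2D4 and -4.38 (SE 0.49, adjusted p = 5.62e-07) in S2D30 (-5.11 without S2D30 replicate 1). GIMEN held 1.49, 0.9798 and 1.23 CPM untreated and 0.468, 0.903 and 1.04 after 30 days and was not called (-0.63, SE 0.37, adjusted p = 0.144), and the difference between lines was -3.76 (SE 0.73, edgeR adjusted p = 0.000421), or -4.49 without that replicate. NTN5 stood at 0.5798, 0.793, 0.662 and 0.696 CPM untreated, 1.29, 0.931, 0.483 and 1.06 in S1D4, 1.98, 1.51, 2 and 0.367 in S2D4 and 4.67, 3.92, 4.25 and 5.07 in S2D30. S2D30 was above each untreated library (2.71, SE 0.40, edgeR adjusted p = 1.20e-05). The S2D4 call (1.08, SE 0.40, adjusted p = 0.0278) overlapped and was lost without untreated replicate 1 or 3 or S2D4 replicate 1 or 3 (adjusted p = 0.0623, 0.053, 0.0882 and 0.0911). In GIMEN, where untreated cells had at most 3 counts in each library, NTN5 was at least 3.99-fold higher after 30 days, computed against 3 counts per library, with 0.624, 0.508 and 0.576 CPM.

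Of the netrin receptors tested in S2D30, UNC5A, UNC5B and UNC5C were lower and DCC was not called. DCC, which mediates attraction to netrin, stood at 2.19, 1.63, 1.94 and 2.18 CPM untreated, 2.59, 3.28, 4.61 and 4.34 in S1D4, 3.86, 4.04, 4.98 and 2.902 in S2D4 and 2.94, 3.02, 2.15 and 2.83 in S2D30. S1D4 and S2D4 lay above each untreated library (0.89, SE 0.22, edgeR adjusted p = 0.00443 and 0.98, SE 0.22, adjusted p = 0.00112), and S2D30 overlapped and was not called (0.45, SE 0.23, adjusted p = 0.0817). GIMEN held 189, 182 and 178 CPM untreated and 209, 128 and 119.9 after 30 days. With D30 replicate 1 above and the others below each untreated library, D30 was not called (-0.26, SE 0.16, edgeR adjusted p = 0.171), but it was without that replicate (-0.56, adjusted p = 7.19e-06).

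UNC5C, a receptor that turns netrin into a repellent, stood at 243, 242, 215 and 356 CPM untreated, 231, 226, 259 and 247 in S1D4, 143, 136, 162 and 160.5 in S2D4 and 14, 18.3, 15.7 and 14.01 in S2D30. S1D4 lay in the untreated range, S2D4 below it and S2D30 far below. The changes were -0.13 (SE 0.13, adjusted p = 0.468), -0.81 (SE 0.13, edgeR adjusted p = 5.45e-05) and -4.09 (SE 0.15, adjusted p = 1.06e-12), and most of the fall came after S2D4 (S2D30 against S2D4: -3.28, SE 0.15, edgeR adjusted p = 8.39e-11). GIMEN held 22.1, 18.1 and 22.6 CPM untreated and 3.796, 4.91 and 4.202 after 30 days, a change of -2.28 (SE 0.14, edgeR adjusted p = 5.21e-08), and the fall in SK-N-AS was larger (difference -1.82, SE 0.24, edgeR adjusted p = 1.06e-05).

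UNC5B, which is also expressed on vessel tips and can promote cell death when netrin is absent, stood at 82.2, 88.6, 85 and 113 CPM untreated, 29.3, 32, 49.4 and 43.7 in S1D4, 32.1, 31.8, 38.5 and 30.02 in S2D4 and 27.4, 29, 27.7 and 28.2 in S2D30. It lay below each untreated library at each step, at -1.26 (SE 0.15, edgeR adjusted p = 6.93e-06), -1.48 (SE 0.15, adjusted p = 2.58e-07) and -1.72 (SE 0.15, adjusted p = 2.70e-08), and the steps after S1D4 were not called against each other (adjusted p = 0.212 and 0.196). GIMEN held 35.6, 32.96 and 32.6 CPM untreated and 18.1, 15.5 and 18.2 after 30 days, a change of -0.96 (SE 0.09, edgeR adjusted p = 1.49e-06). UNC5A stood at 5.06, 6.39, 2.19 and 1.96 CPM untreated, 5.8, 7.35, 5.14 and 5.86 in S1D4, 2.84, 2.47, 2.63 and 12.7 in S2D4 and 0, 0.212, 0.1401 and 0.0898 in S2D30. It was called lower in S2D30 (-5.12, SE 0.77, edgeR adjusted p = 1.50e-05), where it had at most 0.212 CPM, and S2D4 replicate 4 was above each untreated library. UNC5A and UNC5D were not tested in GIMEN, where each had at most 0.173 CPM.

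Slits repel axons through ROBO receptors. SLIT3, at the top of the members per kilobase in untreated SK-N-AS, stood at 329, 353, 360.1 and 404 CPM untreated, 136, 133, 137 and 138 in S1D4, 10.1, 8.803, 9.12 and 9.57 in S2D4 and 33.9, 36.1, 36.9 and 28.96 in S2D30. The groups did not overlap at any step. It fell, at -1.41 (SE 0.08, edgeR adjusted p = 5.37e-09) in S1D4 and -5.26 (SE 0.10, adjusted p = 1.54e-15) in S2D4, and S2D30 lay between S1D4 and S2D4, at -3.41 (SE 0.09, adjusted p = 3.46e-14) against untreated cells and above S2D4 by 1.85 (SE 0.09, edgeR adjusted p = 1.81e-10). GIMEN held 119, 115 and 117 CPM untreated and 72.02, 97.8 and 81.1 after 30 days, a smaller change of -0.48 (SE 0.09, edgeR adjusted p = 0.000713), and the lines differed by -2.95 (SE 0.15, edgeR adjusted p = 1.46e-10). Exons on the opposite strand cover 4.65% of its exon bases.

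SLIT2, the best-known slit, stood at 32.5, 35.5, 18.1 and 22.2 CPM untreated, 41.9, 40.97, 33.1 and 34.05 in S1D4, 25.2, 23.4, 27.96 and 27.7 in S2D4 and 23.7, 20.3, 20.2 and 20.6 in S2D30. Untreated replicates 1 and 2 lay above replicates 3 and 4. S1D4 was called higher with overlap (0.47, SE 0.17, edgeR adjusted p = 0.0338), a call lost without untreated replicate 3 or 4 or without S1D4 replicate 1 or 2 (adjusted p = 0.103, 0.0774, 0.0902 and 0.0832). S2D30 was not called (-0.35, SE 0.17, adjusted p = 0.0712) and became a call without untreated replicate 3 or 4 (adjusted p = 0.00592 and 0.0374). In GIMEN it stood at 209, 195 and 196 CPM untreated and 65.2, 47.1 and 42.2 after 30 days and fell, at -1.95 (SE 0.13, edgeR adjusted p = 1.04e-07), and the lines differed (1.58, SE 0.26, edgeR adjusted p = 9.99e-05). SLIT1 was at most 0.514 CPM in each library.

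ROBO1, a slit receptor of axon tracts, stood at 71.02, 72.5, 71.1 and 118 CPM untreated, 109, 105, 116 and 113 in S1D4, 102, 100.0, 112 and 92.5 in S2D4 and 65.5, 82.5, 69.3 and 56.97 in S2D30. It changed little, with untreated replicate 4 at the S1D4 level. S1D4 was called (0.41, SE 0.15, edgeR adjusted p = 0.0359) but not without untreated replicate 1, 2 or 3 or S1D4 replicate 1, 3 or 4 (adjusted p of 0.0575 to 0.11), and S2D30 was not called (-0.28, SE 0.15, adjusted p = 0.102), except without S2D30 replicate 2 (adjusted p = 0.0406). S2D4 was not called either (0.29, SE 0.15, adjusted p = 0.1), but without untreated replicate 4 it was (0.52, adjusted p = 0.000349). GIMEN held 123, 112 and 117 CPM untreated and 152, 152 and 149.7 after 30 days, a rise of 0.36 (SE 0.06, edgeR adjusted p = 0.000171). ROBO3, a regulator of midline crossing, fell in S2D30 (-0.70, SE 0.24, edgeR adjusted p = 0.0143), with an adjusted p of 0.052 without untreated replicate 3. ROBO2 was not called in any treated SK-N-AS group (-1.10, SE 0.51, adjusted p = 0.0682 in S2D4), but S2D4 was without untreated replicate 1 or S2D4 replicate 1 (adjusted p = 0.0474 and 0.049). ROBO4, a vessel receptor, was tested in GIMEN and not called (-0.77, SE 0.42, adjusted p = 0.12), except without D30 replicate 3 (adjusted p = 0.0499).

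EphA receptors bind ephrin-A ligands and often drive repulsion. EPHA2, which is raised in many tumours, stood at 89.9, 77.3, 60.2 and 53.1 CPM untreated, 89.05, 87.8, 89.8 and 84.6 in S1D4, 201, 196, 205 and 411 in S2D4 and 107, 105, 102 and 119 in S2D30. S2D4 lay above each untreated library, with replicate 4 well above the others, and S2D30 lay between the untreated and the S2D4 libraries. Log2 fold changes were 0.32 (SE 0.21, adjusted p = 0.231) in S1D4, 1.85 (SE 0.21, edgeR adjusted p = 1.07e-06) in S2D4 and 0.62 (SE 0.21, adjusted p = 0.0127) in S2D30. In a fit with a term that separates replicates 3 and 4 from 1 and 2, S2D30 had an edgeR adjusted p of 0.0532. That split was seen among untreated libraries of this gene. The term covers only untreated and S1D4 libraries, so S2D30 is there set against the level of untreated replicates 1 and 2. S1D4 was a call without S2D4 replicate 4 (adjusted p = 0.0351). GIMEN held 93.03, 91.5 and 94.96 CPM untreated and 98.8, 138 and 133 after 30 days, a rise of 0.41 (SE 0.11, edgeR adjusted p = 0.00495).

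EPHA5 and EPHA4, receptors of the forebrain and motor system, rose late from low levels. EPHA5 stood at 0.369, 0.233, 0.407 and 0.822 CPM untreated, 0.0417, 0, 0.307 and 0.0461 in S1D4, 1.06, 0.673, 1.17 and 0.334 in S2D4 and 7.61, 7.197, 7.94 and 6.69 in S2D30. S2D30 lay above every other SK-N-AS library (3.96, SE 0.47, edgeR adjusted p = 1.22e-06, or 4.71 with the term for replicates 3 and 4). S1D4 was called lower with 1 overlapping library (-2.16, SE 0.66, adjusted p = 0.0155), at -3.74 without S1D4 replicate 3, and the call was lost without untreated replicate 4 (adjusted p = 0.0601). GIMEN held 1.63, 1.69 and 1.23 CPM untreated and 4.26, 2.595 and 1.9 after 30 days, a rise of 0.94 (SE 0.32, edgeR adjusted p = 0.0194), lost without D30 replicate 1 or untreated replicate 3 (adjusted p = 0.118 and 0.0749). Its antisense gene EPHA5-AS1 lies opposite 5.44% of its exon bases. EPHA4 had at most 3 counts in each untreated SK-N-AS library and was at least 4.66-fold higher in S2D4 and at least 14.4-fold higher in S2D30, against 3 counts per library, at 1.27, 1.43, 2.102 and 1.93 CPM. In GIMEN it went from 10.7, 11.1 and 11.6 to 25.8, 26.4 and 28.1 CPM (1.27, SE 0.09, edgeR adjusted p = 1.38e-07).

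EPHA7 and EPHA8 fell. EPHA7, a receptor of cortical and spinal axons, stood at 47.96, 47.3, 59.8 and 77.7 CPM untreated, 33.3, 32.2, 36.4 and 37.7 in S1D4, 12.2, 12.3, 12.4 and 9.34 in S2D4 and 6.61, 11.96, 11.4 and 5.03 in S2D30. Each treated library was below each untreated one, at -0.74 (SE 0.22, edgeR adjusted p = 0.0124), -2.33 (SE 0.23, adjusted p = 2.01e-07) and -2.74 (SE 0.24, adjusted p = 2.12e-08), and GIMEN held 19.6, 19.5 and 18.5 CPM untreated and 4.58, 4.12 and 4.83 after 30 days, a change of -2.09 (SE 0.11, edgeR adjusted p = 1.95e-08). EPHA8 stood at 9.303, 9.66, 21.9 and 25.2 CPM untreated, 3.13, 3.72, 12.7 and 10.7 in S1D4, 0.627, 0.841, 1.12 and 4.403 in S2D4 and 0.634, 0.3705, 0.5604 and 0.404 in S2D30. In untreated and S1D4 cells replicates 1 and 2 lay below replicates 3 and 4. It fell, at -3.17 (SE 0.58, edgeR adjusted p = 0.000173) in S2D4, or -4.25 without replicate 4, and at -5.04 (SE 0.68, adjusted p = 4.88e-06) in S2D30, or -4.14 with the term for replicates 3 and 4. S1D4 was not called (-1.13, SE 0.53, adjusted p = 0.102), except without S2D4 replicate 4 (adjusted p = 0.0285). EPHA6 stood at 2.08, 1.82, 2.04 and 2.15 CPM untreated, 3.88, 2.84, 2.94 and 4.29 in S1D4, 2.27, 2.02, 2.196 and 4.34 in S2D4 and 0.544, 0.635, 0.981 and 0.359 in S2D30. S1D4 lay above each untreated library (0.78, SE 0.28, edgeR adjusted p = 0.0353), a call lost without untreated replicate 1, 2 or 3 or S1D4 replicate 1 or 4 (adjusted p of 0.0572 to 0.106), and S2D30 lay below each (-1.68, SE 0.32, edgeR adjusted p = 0.000156). In GIMEN EPHA6 and EPHA8 were at most 0.134 CPM in each library and were not tested. EPHA3 fell in S2D30 (-3.66, SE 0.63, edgeR adjusted p = 6.47e-05) while S1D4 and S2D4 were not called, except S2D4 without its replicate 4 (0.95, adjusted p = 0.046). EPHA1 rose in S2D4, S2D30 and GIMEN D30, at 1.13 (SE 0.27), 1.19 (SE 0.27) and 0.70 (SE 0.25), the GIMEN call being lost without D30 replicate 1 or 2 or untreated replicate 1 or 2 (adjusted p of 0.0659 to 0.0951).

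EFNA1, a ligand of EPHA2, stood at 7.72, 6.86, 7.996 and 6.83 CPM untreated, 18.2, 18.4, 7.81 and 6.598 in S1D4, 4.15, 3.98, 4.93 and 7.604 in S2D4 and 5.21, 3.28, 4.86 and 5.61 in S2D30. S1D4 replicates 1 and 2 lay above each untreated library and replicates 3 and 4 among them. S1D4 was called (0.79, SE 0.30, edgeR adjusted p = 0.0462), and the call was lost without any 1 untreated library, S1D4 replicate 1 or 2, S2D4 replicate 1 or 3 or S2D30 replicate 1, 3 or 4 (adjusted p of 0.0507 to 0.169). S2D4 and S2D30 were not called (-0.50, SE 0.31, adjusted p = 0.169 and -0.63, SE 0.31, adjusted p = 0.0804), and became calls without S2D4 replicate 4 and without S1D4 replicate 4 (adjusted p = 0.0447 and 0.0471). GIMEN held 1.17, 1.02 and 1.03 CPM untreated and 8.27, 7.28 and 6.85 after 30 days, a rise of 2.79 (SE 0.19, edgeR adjusted p = 1.66e-07) and a difference between lines of -3.44 (SE 0.28, edgeR adjusted p = 3.04e-08). EFNA4 and EFNA5 fell in S2D30 (-0.72, SE 0.14, edgeR adjusted p = 0.000226 and -0.66, SE 0.09, adjusted p = 8.88e-06). EFNA3 rose in S1D4 (0.66, SE 0.20, edgeR adjusted p = 0.0165, but 0.053 without untreated replicate 2) and in GIMEN D30 (0.68, SE 0.16, adjusted p = 0.00245), but 44.7% of its exon bases, and 15% of those of EFNA4, lie in a read-through gene on the same strand, so reads may be shared. EFNA2 fell in S2D30 (-3.44, SE 0.59, edgeR adjusted p = 5.85e-05) to at most 0.181 CPM.

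EphB receptors and their transmembrane ephrin-B ligands mark boundaries between cell groups. EPHB6, a receptor without kinase activity whose level is tied to outcome in neuroblastoma studies, rose in both lines. It stood at 46.1, 49.1, 25.01 and 23.3 CPM untreated, 34.8, 37.3, 37.8 and 36.9 in S1D4, 81.1, 73.5, 85.3 and 61.2 in S2D4 and 214, 218, 222 and 216 in S2D30. Untreated replicates 1 and 2 lay above replicates 3 and 4, S1D4 lay between them, and S2D4 and S2D30 lay above. Its log2 fold changes were 0.03 (SE 0.19, adjusted p = 0.917), 1.07 (SE 0.19, edgeR adjusted p = 0.000132) and 2.60 (SE 0.20, adjusted p = 5.18e-09). GIMEN held 119, 116 and 118 CPM untreated and 569.7, 504 and 458 after 30 days, a rise of 2.11 (SE 0.08, edgeR adjusted p = 1.38e-09). The difference between lines was 0.47 (SE 0.28, edgeR adjusted p = 0.177) and was not called.

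EPHB2, a receptor of axon crossing and synapse formation, fell in both lines. It stood at 27.3, 28, 47.8 and 47.2 CPM untreated, 11.4, 11.2, 14.97 and 14.9 in S1D4, 12.2, 11.9, 10.8 and 11.04 in S2D4 and 22.1, 23.4, 25.4 and 18.9 in S2D30. In untreated and S1D4 cells replicates 1 and 2 lay below replicates 3 and 4. Each treated library lay below each untreated one, least so in S2D30, which was above S2D4 (0.97, SE 0.18, edgeR adjusted p = 0.000324). The S2D30 libraries lay nearer to untreated replicates 1 and 2 than to 3 and 4. Against untreated cells the changes were -1.51 (SE 0.18, edgeR adjusted p = 8.48e-06), -1.71 (SE 0.18, adjusted p = 5.58e-07) and -0.74 (SE 0.18, adjusted p = 0.0014), and GIMEN, with 3.83, 5.08 and 5.296 CPM untreated and 1.196, 0.959 and 0.863 after 30 days, fell, at -2.22 (SE 0.25, edgeR adjusted p = 8.54e-06). EPHB4, the venous partner of EFNB2, fell, at -0.97 (SE 0.24), -2.41 (SE 0.26) and -2.67 (SE 0.26) over the steps in SK-N-AS and was not called in GIMEN (0.39, SE 0.27, adjusted p = 0.21). EPHB3 fell too, at -1.20 (SE 0.45), -1.38 (SE 0.46) and -3.17 (SE 0.50), although S2D4 replicate 4, at 42.4 CPM, lay within the untreated range, and without it S2D4 was at -2.60. EPHB3 lay at 14.03 to 21.1 CPM in S1D4, below the untreated 36.1 to 44.5 CPM without overlap. Its S1D4 call was nevertheless lost without any 1 of the untreated, S1D4 or S2D30 libraries (adjusted p of 0.0505 to 0.109). EPHB1 rose in S2D30 (1.88, SE 0.72, edgeR adjusted p = 0.0272) to at most 0.900 CPM, a call lost without untreated replicate 2 or 3 or S2D30 replicate 2 or 3 (adjusted p of 0.0583 to 0.069).

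EFNB2 stood at 36.1, 31.03, 28.8 and 39.6 CPM untreated, 61.01, 53.7, 35.2 and 36.3 in S1D4, 79.3, 82.03, 81.04 and 43.6 in S2D4 and 27.2, 20.4, 19.9 and 28.2 in S2D30. S2D4 lay above each untreated library, least so in replicate 4, and S2D30 below each. The S2D4 rise was 1.07 (SE 0.21, edgeR adjusted p = 0.000331). The S2D30 fall (-0.50, SE 0.21, adjusted p = 0.045) was lost without untreated replicate 1 or 4 or S2D30 replicate 2 or 3 (adjusted p = 0.109, 0.129, 0.113 and 0.119), and S1D4 (0.46, SE 0.21, adjusted p = 0.0981) became a call without S2D4 replicate 4 (adjusted p = 0.0326). GIMEN held 53.1, 43.1 and 49.98 CPM untreated and 26.9, 25.1 and 26.1 after 30 days, a change of -0.90 (SE 0.09, edgeR adjusted p = 2.29e-06). A gene on the opposite strand covers 26.2% of its exon bases. EFNB1 and EFNB3 fell in S2D30 (-0.45, SE 0.16, edgeR adjusted p = 0.0217 and -1.64, SE 0.43, adjusted p = 0.00287) and rose in GIMEN D30 (0.72, SE 0.12, edgeR adjusted p = 0.00026 and 1.22, SE 0.10, adjusted p = 7.34e-07). The S2D30 call of EFNB1 was lost without untreated replicate 1 or S2D30 replicate 1 or 4 (adjusted p = 0.0667, 0.0503 and 0.0627).

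The steps within SK-N-AS were also compared directly, to separate what came with the move to bufalin and neuronal medium from what came later. Against S1D4, S2D4 had 14 members higher and 23 lower (55.1% of all genes called, 28.3% higher and 26.8% lower), or 9 and 15 with a fold of at least 2 (8.89% and 12.8%), and 27 did not overlap (49.4%). The largest falls of at least 2 CPM were those of SEMA5B (-4.28, SE 0.46), SEMA6B (-3.95, SE 0.57), SLIT3 (-3.85, SE 0.10) and NTN3 (-3.46, SE 0.47), and NRP1 rose (2.31, SE 0.29, edgeR adjusted p = 6.06e-06). Without S2D4 replicate 4 the changes of SEMA5B and SEMA6B were -5.17 and -5.65. Against S2D4, S2D30 had 13 higher and 23 lower (51.3%, 24.4% and 26.9%), or 11 and 16 with a fold of at least 2 (10.1% and 9.53%), and 33 did not overlap (50.3%). Without S2D4 replicate 4 there were 20 higher and 26 lower, where 26.5% and 27.2% of all genes were called. UNC5A (-5.55, SE 0.76), EPHA3 (-4.28, SE 0.63), UNC5C (-3.28, SE 0.15), PLXNA4 (-3.17, SE 0.26) and SEMA7A (-3.17, SE 0.14) fell most, UNC5A at -4.57 without that replicate. EPHA5 (3.20, SE 0.46), NRP2 (2.31, SE 0.43), SEMA6A (2.16, SE 0.20) and SLIT3 (1.85, SE 0.09) rose.

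**Figure D3:**
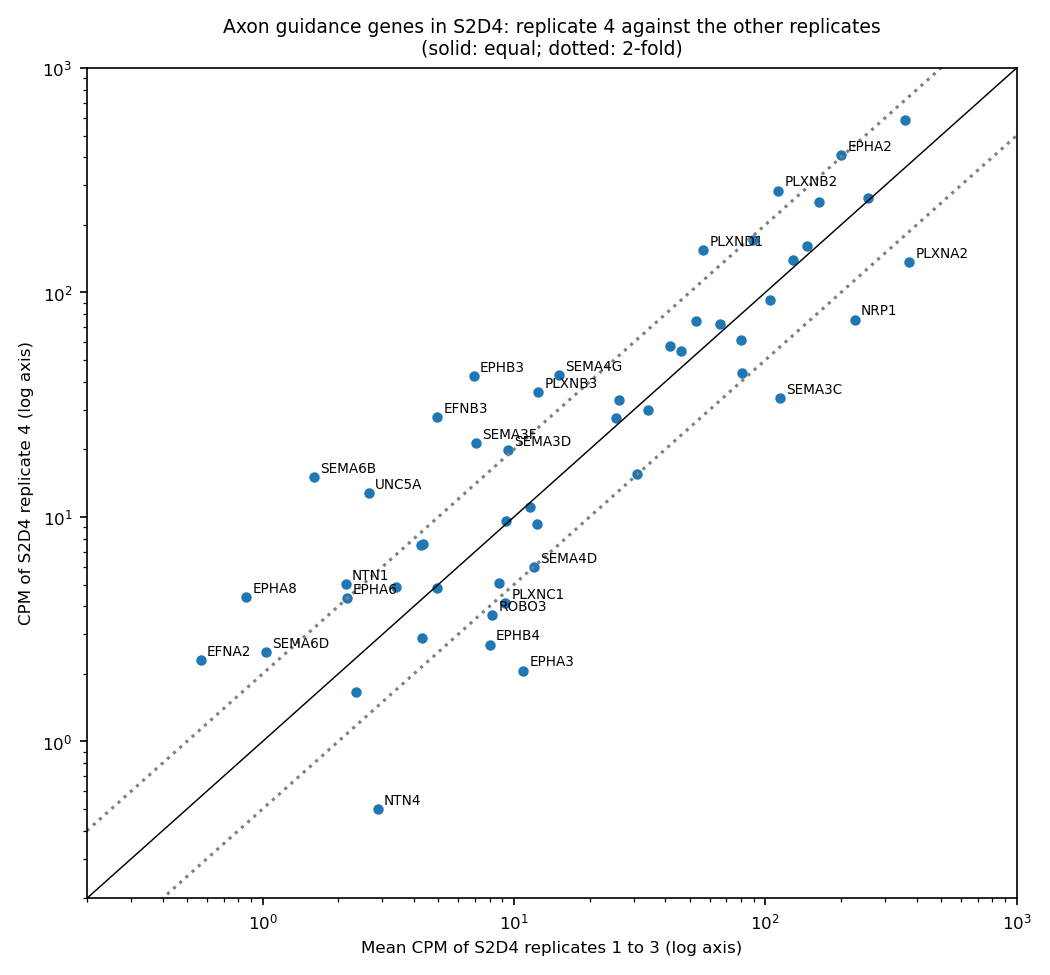
Each point is 1 member, with the mean CPM of S2D4 replicates 1 to 3 on the horizontal axis and the CPM of replicate 4 on the vertical axis, both log axes, with a solid line of equality and dotted lines at 2-fold. SEMA6B, UNC5A, EPHB3 and EFNB3 lay above the upper dotted line and NRP1, SEMA3C, EPHA3 and NTN4 below the lower one.

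The guidance genes were among those by which replicate 4 of S2D4 stood apart. Of 52 members with at least 2 CPM, 16 were at least 2-fold higher and 9 at least 2-fold lower in replicate 4 than in the mean of replicates 1 to 3, or 48.1%, beside 12.5% of 12661 genes chosen by the same level. For 47 of the 52, replicate 4 lay outside the range of the other replicates, or 90.4% beside 86% of those 12661 genes. Without this library, 18 members were higher and 23 lower in S1D4, 19 and 32 in S2D4, and 17 and 35 in S2D30. In the same fit 47.8%, 65.5% and 74% of all 16098 genes were called in these comparisons, and 63.1%, 78.5% and 80% of the 65 members tested. Why the library differs was not tested.

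Over 30 days the lines were compared in 1 model of their untreated and 30-day libraries. Of 65 members tested, the change was higher in SK-N-AS for 12 and lower for 28 (49.7% of all 16246 genes called, 24.5% higher and 25.2% lower), by at least 2-fold for 8 and 19 (12.1% and 13.9%), with a median difference of -0.66 beside -0.02 over all genes. Of the ligands, 5 of 34 were higher and 18 lower, and of the receptors 7 of 31 and 10. Of the 48 members called in S2D30 and the 37 called in GIMEN D30, 11 were higher in both lines (EPHA1, EPHA2, EPHA4, EPHA5, EPHB6, NRP1, NTN5, PLXNA3, SEMA3A, SEMA5A and SEMA6A) and 9 lower in both (EFNB2, EPHA7, EPHB2, PLXND1, SEMA3D, SEMA3E, SLIT3, UNC5B and UNC5C). Another 4 were lower in SK-N-AS and higher in GIMEN (EFNB1, EFNB3, NTN4 and SEMA3B), and 3 the reverse (SEMA3C, SEMA4B and SEMA7A). Of the 50 members tested in both lines these are 22%, 18%, 8% and 6%, and of the 13088 genes tested in both lines 20.1%, 22.2%, 5.87% and 5.29% did the same. Some of the member calls behind these counts were lost without certain single libraries, as given above for each gene.

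**Figure D4:**
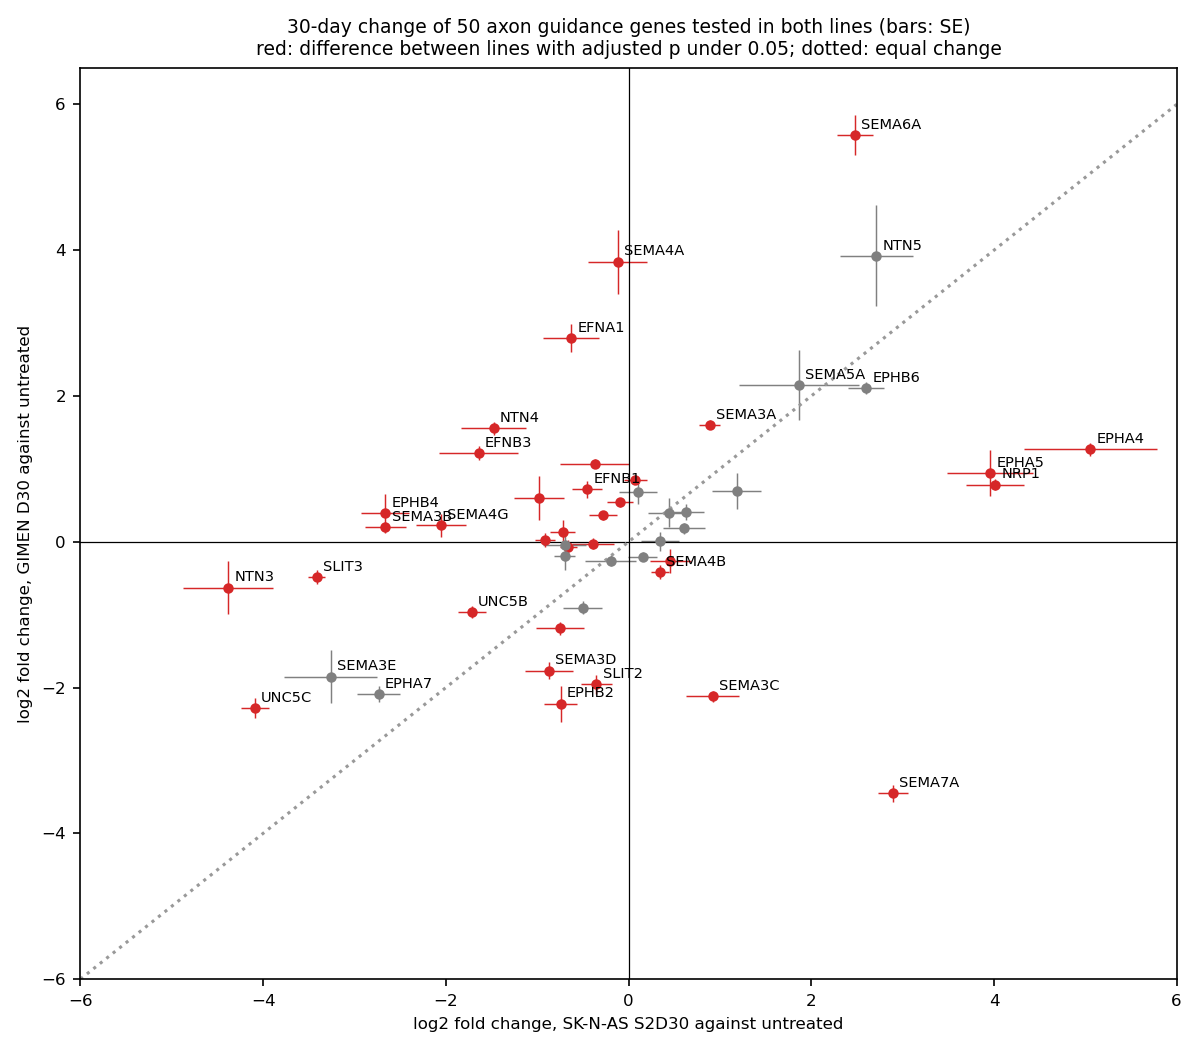
Each of the 50 members tested in both lines is a point, with the log2 fold change of S2D30 on the horizontal axis and of GIMEN D30 on the vertical axis, bars of 1 SE, a dotted line of equal change, and red where the difference between lines had an edgeR adjusted p under 0.05. SEMA7A and SEMA3C lie at the lower right and NTN4, EFNB3 and EFNB1 in the upper left, and the fitted value of EPHA4 in SK-N-AS and of NTN5 in GIMEN rest on an untreated group at the detection floor.

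Before treatment the lines already differed in most of these genes. Between untreated GIMEN and untreated SK-N-AS, 23 members were higher and 37 lower in GIMEN of 65 tested (73.9% of all genes called, 35.3% higher and 38.6% lower), or 92.3% called. By at least 2-fold there were 16 and 31 (18.5% and 23.7%), and 60 did not overlap (71.7%). With 1 scaling of all libraries, DCC was at 209, 201 and 196 CPM in GIMEN and 2.05, 1.53, 1.81 and 2.11 in SK-N-AS (6.74, SE 0.19, edgeR adjusted p = 9.03e-15). SEMA7A (6.13, SE 0.19), NRP2 (5.52, SE 0.25), NRP1 (4.87, SE 0.21) and SEMA3C (3.81, SE 0.14) were also higher in GIMEN, and EPHA4 was at least 111-fold higher. SEMA6B (-8.75, SE 0.39), EPHB3 (-7.01, SE 0.25), SEMA6A (-5.63, SE 0.29) and SEMA3F (-4.91, SE 0.15) were lower. PLXNA4, EPHA8, EPHA3, SEMA6D and UNC5A had at most 3 counts in each untreated GIMEN library and were at least 115, 99.5, 33.5, 33.05 and 23.3-fold lower there. Upper-quartile scaling moved the median of all genes in this comparison by -0.15 on the log2 scale. Line, medium and origin of the cells cannot be told apart here.

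Levels of different genes were compared per kilobase of exon (GENCODE v29) with the scaling of all libraries. In untreated SK-N-AS SLIT3 (24.0 ± 2.41 CPM per kb, SD, n = 4), UNC5C (23.4 ± 5.97), PLXNA1 (20.7 ± 4.30) and PLXNB2 (20.2 ± 1.23) led. Differences between these genes were not tested. In S2D4 EPHA2 led (58.9 ± 24.7), and in S2D30 NRP1 (53.1 ± 2.52), ahead of EPHB6 (39.6 ± 0.656) and EPHA2 (25.2 ± 1.75). In untreated GIMEN NRP1 (92.5 ± 1.56, n = 3) and SEMA3C (87.1 ± 4.21) led, ahead of PLXNB2 (67.6 ± 1.32), and after 30 days NRP1 (162.5 ± 10.8) was followed by EPHB6 (108 ± 12.5) and PLXNB2 (67.7 ± 5.90). NRP1 and EPHB6 were the leading members in the 30-day group of each line.

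A list of 60 further guidance genes, made up of co-receptors, other cues and the intracellular machinery, was read in the same fits. Of 57 tested, 13 were higher and 21 lower in S1D4, 20 and 18 in S2D4 and 17 and 29 in S2D30, with a median of -0.43 in S2D30. The shares called were 59.6%, 66.7% and 80.7%, beside 40.1%, 63.1% and 70.3% of all genes. Of 46 tested in GIMEN, 12 were higher and 24 lower, or 78.3% called beside 71.4% of all genes, with a median of -0.19. FLRT2, a membrane protein that binds UNC5 receptors, rose from 2.17 ± 0.2897 to 63.8 ± 8.12 CPM in S2D30 (4.88, SE 0.20, edgeR adjusted p = 2.87e-12), and the kinase genes ABL2 and LIMK1 rose by 1.99 (SE 0.16) and 1.69 (SE 0.11). The collapsin response mediators DPYSL5 and DPYSL3, which carry SEMA3A signals to the cytoskeleton, fell from 103 ± 8.02 to 0.944 ± 0.141 CPM (-6.76, SE 0.25, edgeR adjusted p = 1.06e-12) and from 848 ± 60.7 to 72.7 ± 10.2 CPM (-3.54, SE 0.11, adjusted p = 9.80e-14), and NTNG1, a membrane-anchored netrin, fell, at -4.30 (SE 0.20). In GIMEN D30, the small GTPase gene RND2 (1.45, SE 0.16, edgeR adjusted p = 6.73e-06), the kinase gene FYN (1.44, SE 0.11, adjusted p = 4.49e-07) and NTNG2 (1.16, SE 0.11, adjusted p = 2.69e-06) rose. DPYSL3 fell in GIMEN as well (-2.07, SE 0.08, edgeR adjusted p = 1.08e-09), with MICAL2, an actin oxidase (-1.73, SE 0.09, adjusted p = 2.09e-08), and the actin-severing gene CFL1 (-1.25, SE 0.07, adjusted p = 1.95e-08).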

How the data were processed

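Total RNA was sequenced in 22 libraries on an Illumina HiSeq X with paired ends, per the labels' protocols. The authors deposited 1 table of raw read counts per gene. Aligner, counter, genome build and strand setting are not given in the sources used here. The rule on gene names and the gene lists were written with earlier results of these data known. Libraries were grouped by their titles, and each column was matched to a title. Genes were filtered with filterByExpr (minimum count 10, minimum total 15), scaled by TMM and tested with edgeR 4.0.16 (R 4.3.3, limma 3.58.1) quasi-likelihood F-tests, with Benjamini-Hochberg adjustment over all genes tested and a threshold of 0.05. One fit held the 16 SK-N-AS libraries, one the 6 GIMEN libraries, and one the 14 untreated and 30-day libraries of both lines. A library with at most 3 counts of a gene was taken as at the detection floor, which covers counting error only. At a total of 16456484 counts 3 counts are the coarsest floor.

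Values in every library (in GIMEN only the highest, for members not tested there) are given for 16 core members, and for the 5 largest rises and 5 largest falls in each treated group among members with an adjusted p under 0.05, at least 2 CPM in a group and no overlap of libraries. Other members are given more briefly. Of the list of 60 further guidance genes, the 3 largest rises and falls in S2D30 and GIMEN D30 are named by the same criteria. Alternatives were DESeq2 1.42.0 (size factors, and its own test), upper-quartile factors, a filter on a mean of 10 counts and none, a replicate block, a term for replicates 3 and 4, only the groups compared, all 22 libraries in 1 fit, and leaving out each library. The edgeR tests of S2D30 and of GIMEN D30 against untreated cells were first run on simulated counts of those groups alone. In these counts far fewer genes changed than were called in the data. The fit of all SK-N-AS libraries and the model of both lines were not simulated. Exon lengths and overlaps are from GENCODE v29 and promoters from RefSeq (GRCh38.p14).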

Additional observations from a re-analysis of the deposited data

Results flagged for a closer look

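The value of each library was compared with the rest of its group for the 34 members given in full, in the groups of 4 libraries. A library was listed when its gap to the nearest other library exceeded Dixon's 95% critical value as a share of the range. This held for 22 of 136 groups (16.2%), while chance lists about 1 in 20, and 13 of the 22 were replicate 4 of S2D4. In that library EFNB2 (43.6 CPM), EPHA7 (9.34), NRP1 (75.8), SEMA3C (33.8) and SEMA6A (15.5) were below the other replicates. EPHA2 (411), EPHA6 (4.34), EPHA8 (4.40), NTN3 (0.634), PLXND1 (155), SEMA3F (21.2), SEMA6B (15.01) and UNC5A (12.7) were above them.

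In the other S2D4 libraries PLXNA4 stood apart in replicate 3 (5.22 CPM). Untreated SK-N-AS replicate 4 stood apart for NTN3 (11.9 CPM) and ROBO1 (118 CPM). In S1D4 the libraries apart were replicate 3 for EPHA5 (0.307 CPM), replicate 2 for SEMA5B (5.69 CPM) and replicate 4 for SEMA6D (1.43 CPM). In S2D30 they were replicate 4 for NRP2 (3.28 CPM), and replicate 1 for NTN3 (0.634 CPM) and SLIT2 (23.7 CPM).

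For 7 members the 30-day changes were called in opposite directions in the lines, and the difference itself was tested. As given above, the GIMEN call of SEMA3B and the S2D30 call of EFNB1 were lost without certain single libraries. The difference of log2 fold changes, SK-N-AS minus GIMEN, was -1.19 (SE 0.17, edgeR adjusted p = 2.57e-05) for EFNB1, -2.87 (SE 0.18, adjusted p = 1.35e-09) for EFNB3, -3.05 (SE 0.17, adjusted p = 4.71e-10) for NTN4 and -2.86 (SE 0.21, adjusted p = 1.32e-08) for SEMA3B. It was 3.03 (SE 0.19, edgeR adjusted p = 1.65e-09) for SEMA3C, 0.75 (SE 0.13, adjusted p = 0.000211) for SEMA4B and 6.34 (SE 0.26, adjusted p = 9.97e-12) for SEMA7A.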

How the results depend on the processing

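The counts of members called stayed within 1.5 times of their value under every alternative run except 1. Members higher in S2D30 than in S2D4 numbered 13, and 11 to 20 when 1 library was left out, the highest without S2D4 replicate 4. Against untreated cells of the same line, leaving out 1 library gave 9 to 18 higher and 13 to 23 lower in S1D4, 15 to 19 and 25 to 32 in S2D4, 13 to 17 and 31 to 35 in S2D30, and 19 to 22 and 14 to 16 in GIMEN D30. Over 587 results for single genes there were 12864 alternative values, of which 12446 kept their side of the threshold, 260 lost a call and 154 gained one. Of the 12446, 12295 also kept their direction and 151 turned in sign with no call in either fit. Calls changed in 141 results, and DESeq2 gave no adjusted p for 7 calls. The 4 values that turned in sign with a call in either fit all came without S2D4 replicate 4: SEMA6B went from -0.60 to 1.10 and EFNB3 from -0.24 to 0.89 between S2D4 and S2D30 (ranges without 1 library -0.92 to 1.10 and -0.51 to 0.89), and PLXNB2 became -0.46 in S2D4 against untreated cells and -0.45 against S1D4 (highest values 0.16 and 0.17, without S2D4 replicate 2). The cause was not tested.

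Replicate numbers did not pair the libraries: correlations of same-numbered deviations ran from -0.119 to 0.402 in SK-N-AS, not every one over 0.1, and not each library matched its own number best. With the replicate block 13 members were higher and 16 lower in S1D4, 16 and 25 in S2D4, 15 and 33 in S2D30, and 21 and 16 in GIMEN D30. Untreated and S1D4 libraries numbered 1, 2, 3 and 4 correlated at 0.40, 0.35, 0.035 and 0.37, with replicates 3 and 4 matching each other best. With a term that separates replicates 3 and 4 of these groups from 1 and 2, 12 members were higher and 17 lower in S1D4, 18 and 28 in S2D4 and 13 and 34 in S2D30, with 28 of 29, 40 of 41 and 44 of 48 calls shared. Between S1D4 and S2D4 32 of 37 calls were shared. Stage 2 libraries carry no such term, so that fit sets them against the level of replicates 1 and 2. Under upper-quartile scaling the median of all genes between the untreated lines moved by -0.153, which called PLXNA1 lower in GIMEN (-0.31) and took away the call of SEMA3A (0.27, adjusted p = 0.0598). Depth limits members under about 1 CPM, where a few counts decide a value.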
